A study of Mus musculus with 12 samples.

Results

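The ON bipolar mGluR6 cascade and a small group of bipolar cell proteins were followed in the *Otx2* CKO retina. The members were taken from the published biology of these cells: *Grm6*, *Trpm1*, *Gpr179*, *Lrit3*, *Gnao1*, *Rgs7*, *Rgs11*, *Pcp2*, *Prkca* and *Cabp5*. Of these 10 genes, 8 had a probe set that the platform annotation names with 1 symbol. They were measured by 18 of the 45101 probe sets, 34958 of which carry 1 symbol. *Grm6* and *Lrit3* had no probe set named here and were not analysed here.

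Total RNA of dissected whole retinas was hybridized to 12 Affymetrix mouse whole-genome arrays, 3 in each of 4 groups. The control mice were *Otx2* flox/flox; *Crx-Cre*-, so that they carried the floxed gene but no Cre. The *Otx2* CKO mice were *Otx2* flox/flox; *Crx-Cre*+, with Cre driven by the promoter of *Crx*, a gene of developing photoreceptors. Retinas of both genotypes were taken at postnatal day 1 (P1) and at P12. The study calls the arrays of a group independent experiments, but neither it nor the labels say whether they stand for separate animals or for pools, and the labels do not give the strain. The p-values therefore measure the spread between these arrays. For part of the samples the free description gives a genotype that differs from the title, and groups were taken from titles and genotype fields.

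ON bipolar cells carry signals from photoreceptors to the inner retina. In darkness, glutamate from the photoreceptors activates mGluR6 (*Grm6*), the Go protein it couples to keeps the cation channel TRPM1 closed, and light lets this channel open. RGS proteins held in place by GPR179 speed the shut-off of Go, and LRIT3 helps to place TRPM1 at the dendritic tips. PCP2 binds Go, PKCα (*Prkca*) is the classical marker of rod bipolar cells, and CaBP5 is a calcium-binding protein of rod bipolar cells and some cone bipolar cells. OTX2 is a homeodomain protein of photoreceptors and bipolar cells.

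The sequence that OTX2 and its relative CRX favor is TAATCC, and 2 windows of the member genes hold it. Windows of 300 bases (250 bases before to 50 after the annotated start, RefSeq, mouse build GRCm38.p6) were searched on both strands for TAATCC and for TAATTA, a core of other homeodomain proteins. The windows with TAATCC belong to *Cabp5*, which fell at P12, and to *Trpm1*, which stayed under a signal of 50 in all arrays. They are shown with the motif in capitals (GGATTA where it lies on the other strand).
Cabp5, chr7:13397905-13398204, plus strand: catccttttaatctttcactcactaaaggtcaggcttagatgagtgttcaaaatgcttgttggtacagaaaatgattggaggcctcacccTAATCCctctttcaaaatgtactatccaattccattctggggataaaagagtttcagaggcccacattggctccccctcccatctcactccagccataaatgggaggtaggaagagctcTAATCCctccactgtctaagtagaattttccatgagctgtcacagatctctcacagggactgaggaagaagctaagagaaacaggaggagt
Trpm1, chr7:64153585-64153884, plus strand: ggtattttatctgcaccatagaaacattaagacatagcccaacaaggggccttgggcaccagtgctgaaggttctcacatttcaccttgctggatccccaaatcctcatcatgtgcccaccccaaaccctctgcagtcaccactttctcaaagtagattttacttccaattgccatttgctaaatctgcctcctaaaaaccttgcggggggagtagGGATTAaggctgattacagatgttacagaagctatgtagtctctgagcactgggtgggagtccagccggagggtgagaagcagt
TAATCC was found in 2 of 13 windows of the 9 member genes in the table (15.4%) and in 2320 of all 32851 windows (7.06%). TAATTA was found in 1 of the 13 member windows (7.69%), one of *Pcp2*, and in 1738 of all windows (5.29%). The *Cabp5* window holds TAATCC at −160 and −41 bases from the start, and the *Trpm1* window at −34. Several windows of *Pcp2* overlap each other, and *Rgs11* is named only. A match is a description of the letters and not a site of binding.

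The deposited signals were used as they stand, on a linear intensity scale. The 2% trimmed mean of an array was 28.5 to 30.1 in P1 control, 21.8 to 27.9 in P1 *Otx2* CKO, 96.4 to 111 in P12 control and 108 to 172 in P12 *Otx2* CKO retinas. The value of 172 came from *Otx2* CKO replicate 1, and the other arrays of its group had 108 and 110. Within a group, log2 signals of the arrays correlated at 0.958 to 0.986 at P1 and at 0.884 to 0.965 at P12. A log2 change is on the log2(signal + 16) scale, which understates the change of dim probe sets, and a probe set was tested where a compared group had a mean signal of at least 50. *Otx2* itself gave 1058, 1048 and 803 in the P12 control arrays and 245, 167 and 108 in the P12 *Otx2* CKO arrays (log2 change −2.44, SE 0.27, limma adjusted p = 6.96e-05). At P1 its signal was 376, 358 and 283 in control and 144, 108 and 154 in *Otx2* CKO arrays. The genotypes did not overlap there, but the log2 change of −1.23 was not called (SE 0.27, limma adjusted p = 0.207). Whether the probes of this set fall inside the floxed region was not tested.

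At P12, *Pcp2*, *Cabp5* and *Rgs11* were lower in the *Otx2* CKO retina, by 38.0-fold for *Pcp2* and 2.88-fold for *Rgs11* in mean signal. *Cabp5* fell from 774 to a mean under the signal limit of 50, at least 15.5-fold against that limit. *Gnao1* and *Rgs7*, which many retinal neurons express, showed mean differences near 0. *Prkca* and *Gpr179* had lower means that did not pass the test with 1 probe set for each gene, and *Trpm1* stayed under the signal limit in all arrays. In counts, 3 of the 7 tested genes were lower and 0 were higher (limma adjusted p under 0.05). Over all 21390 probe sets tested, 971 (4.54%) were lower and 3019 (14.1%) were higher, with a median log2 change of 0.39 for all tested. After quantile normalization of the 12 arrays, 1438 were lower and 1348 higher, with a median of 0.07, and 4 members were lower. The median over the 8 member genes was −1.01. By probe set, 8 of the 12 tested were lower and 0 higher, and in the same 8 all 3 *Otx2* CKO arrays lay below all 3 control arrays. Such separation downward was seen in 1157 (5.41%) of all tested probe sets. Of the 12 tested, 6 reached the limit only through the control arrays. In whole retina, fewer bipolar cells and less RNA in each cell cannot be told apart.

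**Figure D1:**
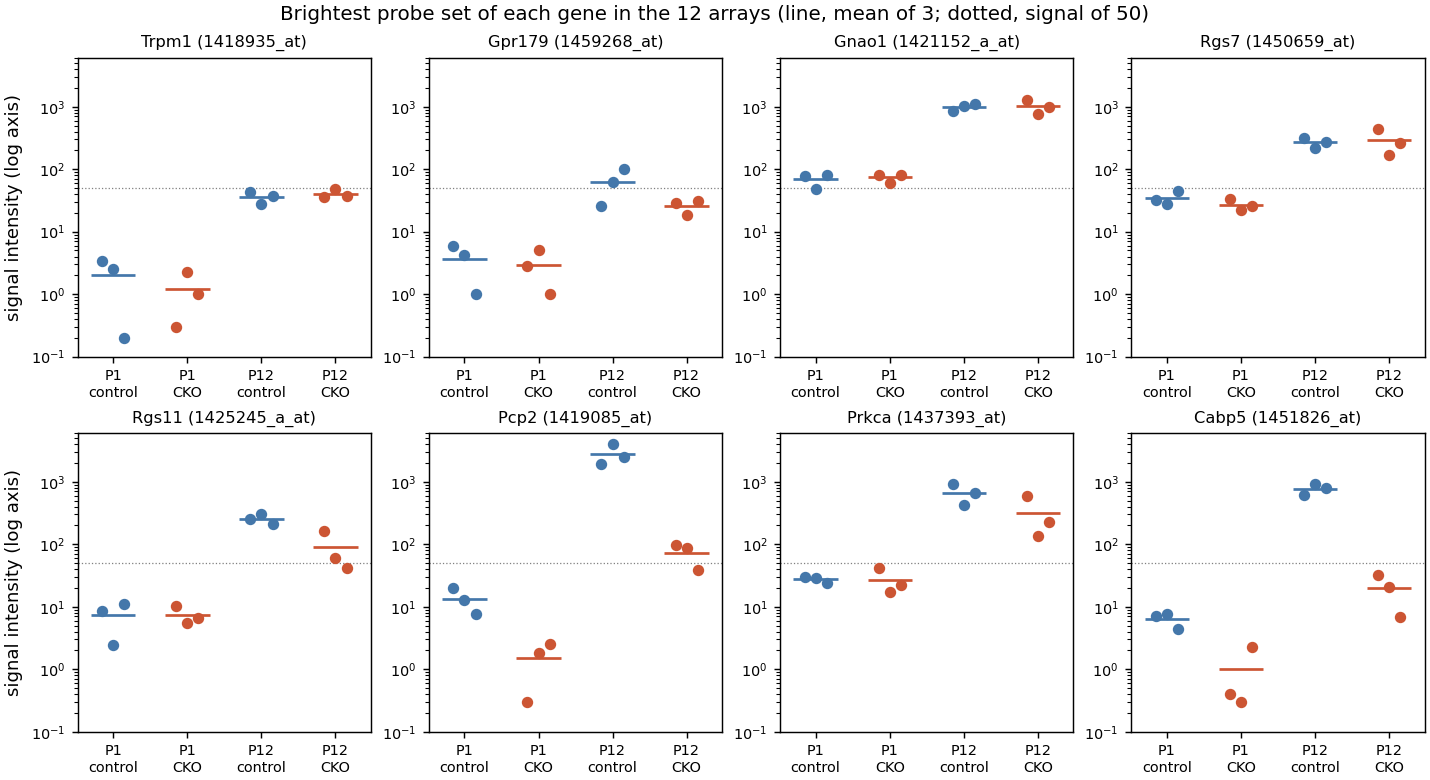
Signal intensity (log axis) of the brightest probe set of 8 genes in the 12 arrays. Points are single arrays, lines the means of 3 arrays, and the dotted line the signal limit of 50. At P12 the *Pcp2* and *Cabp5* arrays of the *Otx2* CKO retina (39.2 to 95.9 and 6.9 to 32.2) lie far below the control arrays (1896 to 3954 and 607 to 917), while those of *Gnao1* and *Rgs7* overlap.

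*Pcp2*, whose product binds the Go alpha subunit, fell in all of its probe sets. Its main probe set (1419085_at) read 1896, 3954 and 2529 in the P12 control arrays and 95.9, 85.6 and 39.2 in the P12 *Otx2* CKO arrays. All *Otx2* CKO arrays were below all control arrays, and the spread between control arrays (2793 ± 1054, SD, n = 3) was small beside the gap to 73.6 ± 30.2. The log2 change was −4.97 (SE 0.32, limma adjusted p = 8.77e-07). Within its array, which leaves the scale of the array out, this probe set ranked at the 99.3 to 99.5 percentile in control and at the 53.4 to 70.4 percentile in *Otx2* CKO retinas. Both further probe sets gave the same direction. The probe set 1419084_a_at changed from 671, 1490 and 800 to 40.4, 32.8 and 1.7 (log2 change −4.69, limma adjusted p = 5.99e-06), and 1424944_at from 171, 214 and 171 to 12.2, 2.6 and 10.1 (log2 change −3.06, limma adjusted p = 1.42e-06).

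*Cabp5* fell in both of its probe sets. Its main probe set (1451826_at) read 607, 917 and 799 in the P12 control arrays. In the P12 *Otx2* CKO arrays it read 32.2, 20.4 and 6.9, all under the signal limit. The mean went from 774 ± 157 to 19.8 ± 12.7 (SD, n = 3 arrays each), a log2 change of −4.51 (SE 0.27, limma adjusted p = 8.23e-07). The second probe set (1421780_a_at) gave 503, 705 and 633 against 23.7, 17.8 and 2.2, with a log2 change of −4.43. *Pcp2* and *Cabp5* kept these calls in all 26 alternative settings tried.

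*Rgs11* encodes one of the regulators that shorten Go signaling at the dendritic tips of ON bipolar cells, and it fell by a smaller log2 change. Its probe set (1425245_a_at) read 255, 306 and 207 in the P12 control arrays and 164, 61.1 and 41.9 in the P12 *Otx2* CKO arrays. The groups did not overlap, but *Otx2* CKO replicate 1, the array with the trimmed mean of 172, stood well above the others of its group. The log2 change was −1.53 (SE 0.35, 95% interval −2.30 to −0.77, limma adjusted p = 0.0102), and this interval does not reach those of *Pcp2* (−5.66 to −4.28) and *Cabp5* (−5.09 to −3.93). Fitting each age alone ended this call (limma adjusted p = 0.0873), and leaving out *Otx2* CKO replicate 1 gave −2.01.

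*Rgs7*, the regulator that acts beside RGS11 and that other neurons also express, showed no such difference. It read 317, 216 and 275 in the P12 control arrays and 448, 170 and 262 in the P12 *Otx2* CKO arrays. The groups overlapped. The log2 change was 0.03 (SE 0.30, 95% interval −0.63 to 0.69, limma adjusted p = 0.948), and its sign turned with scaling (−0.31 after quantile normalization of the 12 arrays).

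*Gnao1*, which encodes the Go alpha subunit and is abundant throughout the nervous system, read 844, 1013 and 1093 in the P12 control arrays and 1287, 756 and 993 in the P12 *Otx2* CKO arrays. These groups overlapped too. The log2 change was 0.02 (SE 0.25, 95% interval −0.52 to 0.55, limma adjusted p = 0.969), or −0.28 after quantile normalization. Within its array the probe set ranked at the 96.5 to 97.7 percentile in control and at the 95.5 to 97.1 percentile in *Otx2* CKO retinas. Both further probe sets of *Gnao1* stayed at or below 49.4 in every P12 array and were not tested.

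*Prkca* encodes PKCα, a kinase of rod bipolar cells that some amacrine cells also hold, and its 3 probe sets had nearly the same change. The main one (1437393_at) read 917, 420 and 666 in the P12 control arrays and 582, 134 and 228 in the P12 *Otx2* CKO arrays. These groups overlapped, and the log2 change of −1.22 (SE 0.43) had a limma adjusted p of 0.0684. After quantile normalization of the 12 arrays the adjusted p was 0.0145, and with replicate number as a block within each age it was 1.20e-05. That blocked fit gave all probe sets nearly 1 pooled spread (a median of 85560 degrees of freedom). With quantile normalization within each age as well (11.2 degrees of freedom) the adjusted p was 6.61e-06. Single arrays also decided this value: without *Otx2* CKO replicate 1 it was −1.77 (limma adjusted p = 0.00494), without control replicate 2 it was −1.51 (limma adjusted p = 0.0329), and without *Otx2* CKO replicate 2 it was −0.77 (limma adjusted p = 0.169). The probe set 1450945_at read 227, 264 and 233 against 145, 72.5 and 71.8 and fell by 1.25 on the log2 scale (SE 0.24, limma adjusted p = 0.00417). The probe set 1427562_a_at read 64.6, 106 and 84.3 against 27.1, 24.4 and 25.2 and fell by 1.26 on the log2 scale (SE 0.20, limma adjusted p = 0.00121). In both of these dimmer probe sets the genotypes did not overlap. Their calls were lost where each age was fitted alone (limma adjusted p = 0.0875 and 0.0855).

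*Gpr179* encodes the orphan receptor that anchors the RGS proteins, and its probe set (1459268_at) was dim and uneven. It read 25.4, 62.7 and 101 in the P12 control arrays and 28.8, 18.7 and 30.6 in the P12 *Otx2* CKO arrays. Control replicate 1 lay within the range of the other genotype. The log2 change was −0.80 (SE 0.32, 95% interval −1.49 to −0.11, limma adjusted p = 0.101). The limma adjusted p was 0.000787 with replicate number as a block within each age, and 0.00525 with quantile normalization within each age as well. Leaving out control replicate 1 gave −1.20 (limma adjusted p = 0.00785), and leaving out *Otx2* CKO replicate 2 gave −0.67 (limma adjusted p = 0.174). No other tested removal of a single array gave a call. Fitting each age alone gave a limma adjusted p of 0.367. Without the control array that read 101 the gene fell below the signal limit and was not tested. It was also not tested after quantile normalization of all arrays, median scaling or spike scaling, or with the higher signal limit.

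*Trpm1*, the channel at the end of the cascade, was read by 4 probe sets, none of which reached a group mean of 50. The main one (1418935_at) read 42.5, 27.6 and 37.7 in the P12 control arrays and 35.9, 48.5 and 37.3 in the P12 *Otx2* CKO arrays. Another (1437531_at) read 5, 20.2 and 20 against 1.7, 0.8 and 2.4, without overlap. The groups overlapped in the others, so that the 4 probe sets disagree, and no direction for *Trpm1* was read from them. Pigment cells also express *Trpm1*. Of 8 pigment cell markers 6 were tested and 3 were higher in the P12 *Otx2* CKO retina, with a median log2 change of 0.81 (2 were higher under each of the 4 other scalings). Of all tested probe sets 14.1% were higher. Their summed signal was 422 to 707 in the control arrays and 1263 to 2202 in the *Otx2* CKO arrays, led by *Dct* (231 ± 59.7 against 949 ± 337), a pigment enzyme, and *Tyrp1* (45.9 ± 1.18 against 167 ± 40.2). *Best1*, a gene of the pigment epithelium, was under the signal limit in both (3.43 ± 2.15 against 7.37 ± 6.54). *Rpe65*, another such gene on the list, was tested without a call (log2 change 0.77, limma adjusted p = 0.119). The part of pigment cells in the *Trpm1* signals was not tested.

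**Figure D2:**
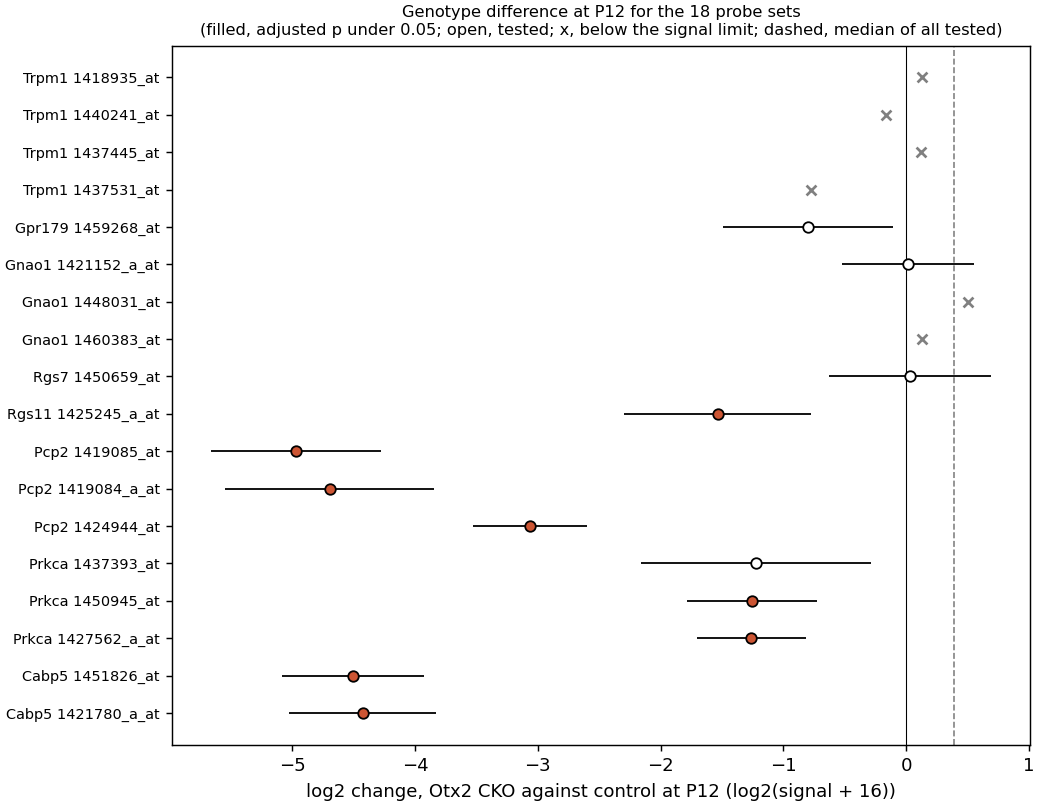
Log2 change of the 18 member probe sets, *Otx2* CKO against control at P12. Bars are 95% intervals, filled points have a limma adjusted p under 0.05, open points were tested without a call, crosses were below the signal limit, and the dashed line is the median of 0.39 over all tested probe sets. The *Pcp2* and *Cabp5* probe sets lie between −4.97 and −3.06, those of *Prkca* near −1.2, and *Gnao1* and *Rgs7* at 0.

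At P1 these genes were barely measured. The main probe set of *Gnao1* alone reached the limit, with 76.5, 48.8 and 81 in control and 80.3, 61 and 81.2 in *Otx2* CKO arrays, and its log2 change was 0.10 (SE 0.25, limma adjusted p = 0.918, unadjusted p = 0.687). Thus 0 of 1 tested member was called, against 15 lower (0.179%) and 0 higher (0%) of 8384 tested probe sets (without adjustment, limma gave p under 0.05 for 139 lower and 6 higher). No other member probe set had a group mean above 34.5 at P1. *Pcp2* read 19.8, 12.6 and 7.8 in control against 0.3, 1.8 and 2.5 in *Otx2* CKO arrays, and *Cabp5* read 7, 7.7 and 4.4 against 0.4, 0.3 and 2.3. In these main probe sets the genotypes did not overlap at P1, at signals far under the limit where no test was made. Such separation downward was seen at P1 in 4 member probe sets, all of *Pcp2* and *Cabp5*. A further *Pcp2* probe set overlapped, with 2.7, 1.4 and 0.3 in control against 0.3, 0.6 and 2.9 in *Otx2* CKO arrays. The share of all probe sets with such separation at P1 was not counted, and the P1 *Otx2* CKO arrays had lower trimmed means than the P1 control arrays. No early genotype effect was read from these signals.

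On the log2(signal + 16) scale the genotype difference was larger at P12 than at P1 for *Pcp2* (difference of the log2 changes −4.24, SE 0.45, limma adjusted p = 0.000249) and *Cabp5* (−4.11, SE 0.38, limma adjusted p = 0.000119). Both genes were far under the limit at P1, where the added 16 keeps a change small. These differences therefore largely restate the change at P12. With an offset of 1 in place of 16 the *Pcp2* difference was −2.72 and missed the threshold (limma adjusted p = 0.0527). *Pcp2* and *Cabp5* were 2 of 7 tested members lower, with 0 higher, beside 386 lower (1.79%) and 663 higher (3.08%) of all 21530 tested (580 and 238 after quantile normalization of the 12 arrays, when 3 members were lower). By probe set 5 of 12 passed, all of *Pcp2* and *Cabp5*. For *Rgs11* the difference was −1.56 (limma adjusted p = 0.0900, or 2.32e-05 with replicate number as a block within each age), and leaving out *Otx2* CKO replicate 1 of P12 gave −2.03 (limma adjusted p = 0.00348). The *Rgs11* difference passed in 8 of 25 alternatives, among them each of 4 other scalings (limma adjusted p 0.00546 to 0.0331), and did not in 17. *Prkca* had −1.17 (limma adjusted p = 0.251, or 0.00608 with that block) and *Gpr179* −0.75 (0.313, or 0.0407 with that block). *Gnao1* and *Rgs7* had −0.09 and 0.27 (limma adjusted p = 0.876 and 0.685). With that block and quantile normalization within each age *Gnao1* had −0.57 (limma adjusted p = 0.0403).

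All 7 tested members were higher in the P12 control than in the P1 control retina (limma), as were 15358 (82.7%) of 18560 tested probe sets, with 278 (1.5%) lower. Of these members 6 reached the signal limit only through P12, where they are high, so their count is a description. The share of all probe sets depended on the scaling. After quantile normalization of the 12 arrays, 3437 probe sets were higher and 3465 lower, and all 6 members still tested were higher. The log2 change in the control retina was 6.53 for *Pcp2* and 5.13 for *Cabp5*, followed by 3.91 for *Prkca*, 3.57 for *Gnao1*, 3.55 for *Rgs11*, 2.50 for *Rgs7* and 1.89 for *Gpr179*, against a median of 1.45 for all tested. After quantile normalization the changes were 5.37 for *Pcp2*, 4.05 for *Cabp5*, 2.54 for *Prkca*, 2.53 for *Rgs11*, 1.98 for *Gnao1* and 1.10 for *Rgs7*. *Pcp2* and *Cabp5* thus led both orders, and the intervals of *Prkca*, *Gnao1* and *Rgs11* overlapped.

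In the *Otx2* CKO retina 5 members could be tested between the ages, and all 5 were higher at P12 (limma), as were 19844 (96.2%) of 20638 probe sets, with 128 (0.62%) lower. Of these 5, 4 reached the limit only through P12. The P1 and P12 comparisons share arrays with those of the genotypes, so these values only restate them by age. *Gnao1* rose by 3.49 and *Rgs7* by 2.76, close to the control retina, whereas *Pcp2* rose by 2.29, *Prkca* by 2.74 and *Rgs11* by 1.99, against a median of 1.85 for all tested. *Cabp5* reached a mean of only 19.8 and *Gpr179* of 26.0 at P12, and neither was tested. After quantile normalization *Gnao1* (1.36) and *Rgs7* (0.86) passed, *Prkca* gave 0.86 (limma adjusted p = 0.110), and *Pcp2* and *Rgs11* no longer reached the limit.

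**Figure D3:**
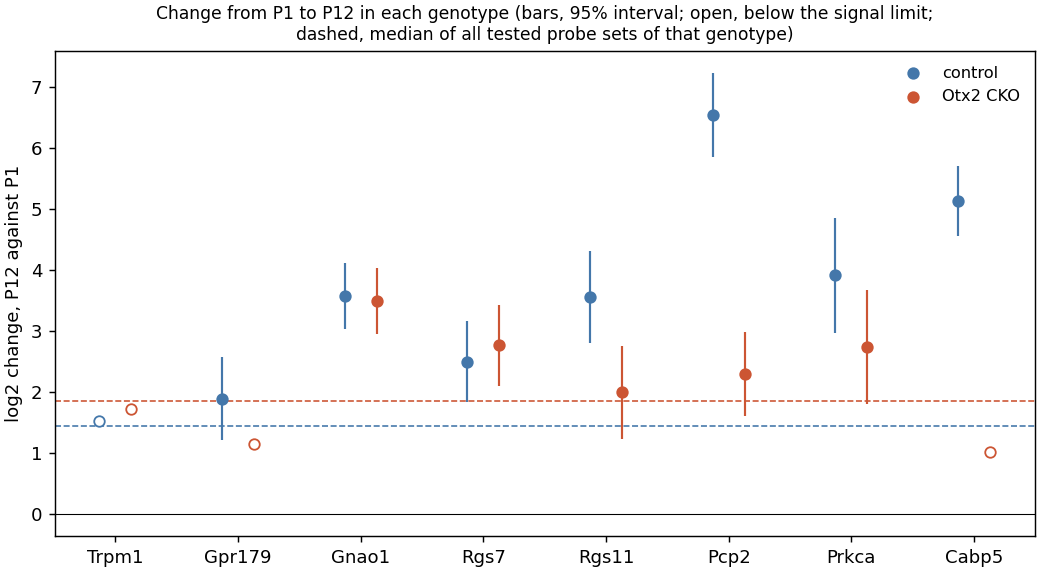
Log2 change from P1 to P12 of the main probe set of 8 genes in control (blue) and *Otx2* CKO (red) retinas. Bars are 95% intervals, open points were below the signal limit, and dashed lines are the medians over all tested probe sets (1.45 and 1.85). Among the 5 genes tested in both genotypes *Pcp2* shows the widest gap, 6.53 against 2.29, and the points of *Gnao1*, *Rgs7* and *Trpm1* lie close together between the genotypes.

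The other genes of the cascade were taken from a list of mGluR6 complex members and partners. All 7 tested of its 8 genes were lower at P12 in the *Otx2* CKO retina and 0 higher, with a median log2 change of −3.68. Over all tested probe sets 4.54% were lower and 14.1% higher. The 7 genes were also lower under each of 4 other scalings. *Lrit1*, a synaptic leucine-rich repeat protein, fell from 1111 ± 169 to 30.3 ± 12.1 (log2 change −4.63, limma adjusted p = 5.85e-07). *Rgs9bp*, an anchor of RGS proteins, fell from 691 ± 213 to 21.8 ± 12.4 (log2 change −4.22). *Gnb3*, the beta subunit of the ON bipolar and cone G proteins, fell from 1752 ± 432 to 87.0 ± 47.3 (log2 change −4.18). The remaining falls were those of *Gng13* (−3.68), *Gnb5* (−1.75), *Elfn1* (−1.45) and *Nyx* (−0.85, limma adjusted p = 0.0257), the last of which encodes nyctalopin, a partner of mGluR6. *Gpr158* was below the limit. Photoreceptors also express *Lrit1*, *Rgs9bp*, *Gnb3* and *Gnb5*, and the study lists *Lrit1* and *Rgs9bp* under photoreceptors. Which cells express *Elfn1*, *Gng13* and *Nyx* was not examined here. All 7 tested rod and cone markers were lower at P12 (median log2 change −4.13, summed signal 23587 to 32535 in control and 864 to 1866 in *Otx2* CKO arrays), and the part of photoreceptors in these falls was not tested.

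Relatives of the members moved less uniformly. Their counts stand beside 4.54% lower and 14.1% higher of all tested probe sets, with a median log2 change of 0.39. Of the other RGS genes, 1 of 8 tested was lower (*Rgs20*, −2.26) and 2 higher (*Rgs2*, 1.11, and *Rgs10*, 1.0). Of the Gi and Go alpha genes other than *Gnao1*, 1 of 4 was lower (*Gnaz*, −0.98) and 2 higher (*Gnai1*, 1.04, and *Gnai2*, 0.90). Of 4 tested GoLoco genes, which encode Gi and Go binding proteins like PCP2, *Gpsm2* (−2.19) and *Gpsm3* (−0.93) were lower and *Rgs12* (1.07) higher. In the CaBP family *Cabp4*, a protein of photoreceptor terminals, fell from 570 ± 338 to 14.1 ± 6.47 (log2 change −4.15, limma adjusted p = 3.94e-06), *Cabp2* had −2.25 and *Caln1* 1.09. The other protein kinase C genes gave 5 higher of 7 tested and 0 lower, led by *Prkci* (1.06), *Prkcb* (0.91) and *Prkcq* (0.87). None of 3 tested TRPM genes was called (limma, adjusted p 0.103 to 0.954), and of 6 other metabotropic glutamate receptors 1 was higher (*Grm8*, 0.93). Calls in the higher direction depended on the scaling: after quantile normalization 2 protein kinase C genes, 1 RGS gene and 0 glutamate receptors were called higher, and after median scaling 0 of each. *Gnai1*, *Gnai2* and *Rgs12* also lost their calls after median scaling, and *Gnai2* and *Caln1* with spike scaling. The falls of *Rgs20*, *Gnaz*, *Gpsm2* and *Gpsm3* passed under each of the 4 other scalings.

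**Figure D4:**
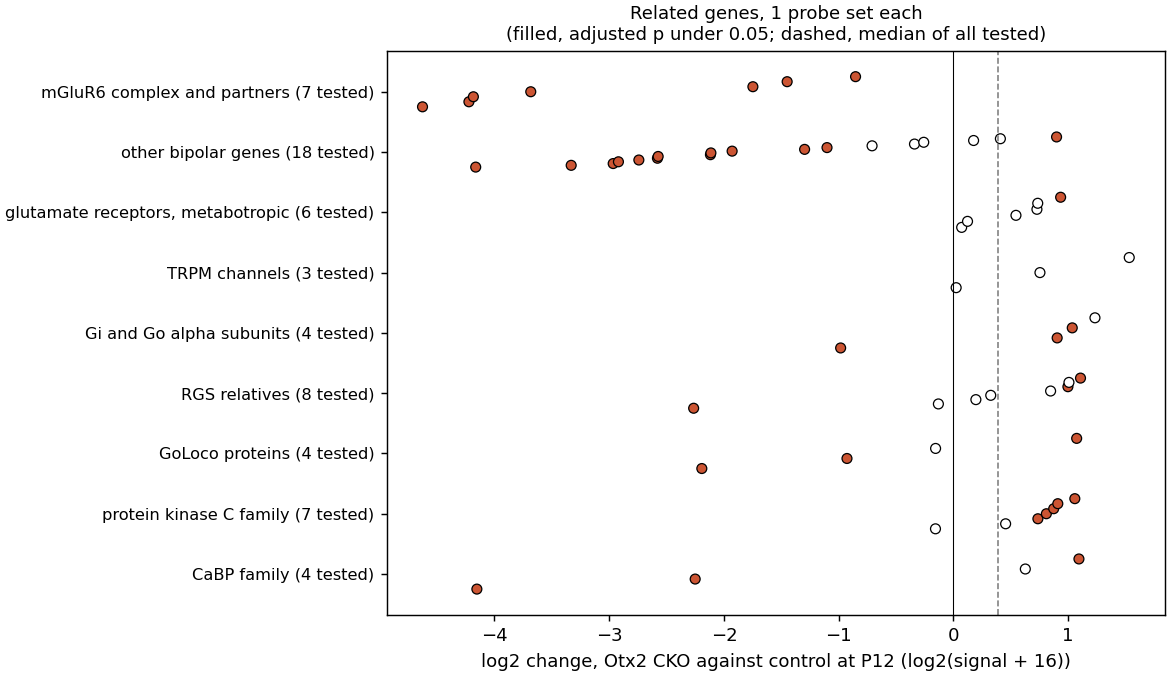
Log2 change at P12, *Otx2* CKO against control, of genes related to the cascade, with 1 probe set for each gene and 1 row for each list (height within a row only separates points). Filled points have a limma adjusted p under 0.05, open points do not, and the dashed line is the median over all tested probe sets (0.39). The 7 tested mGluR6 partners lie between −4.63 and −0.85, and the other families stand on both sides of 0 or above it.

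Other bipolar genes were lower too. Of 22 on the list, 19 had a probe set, 18 were tested, 12 were lower and 1 higher at P12, with a median log2 change of −2.02. *Gabrr1*, a GABA-C receptor subunit that the study lists under photoreceptors, had −4.16 (547 ± 280 against 15.3 ± 16.4). The part of photoreceptors in its fall was not tested. *Scgn*, a calcium-binding protein of cone bipolar cells, had −3.33 (729 ± 296 against 57.5 ± 26.1), and *Vsx1*, a transcription factor of cone bipolar cells, −2.97 (199 ± 52.9 against 12.0 ± 8.88). *Prdm8* was higher (0.90, limma adjusted p = 0.0430), which did not pass after any of the 4 other scalings. Markers of the other retinal cells differed by cell type, beside 4.54% lower and 14.1% higher of all tested probe sets. The rod and cone markers, given above, were all lower. Of 7 tested amacrine markers 0 were lower and 2 higher, with a summed signal of 5203 to 8160 in the control and 8153 to 11752 in the *Otx2* CKO arrays. Of the ganglion cell markers 0 of 6 were lower and 1 higher, of the Müller glia markers 0 of 7 lower and 3 higher, and of the microglia markers 0 of 6 lower and 6 higher. Of 3 tested horizontal cell markers, 2 were lower and 1 higher. Under the 4 other scalings 0 ganglion cell, 1 to 2 Müller glia, 0 to 2 amacrine and 3 to 6 microglia markers were higher, and 1 to 2 horizontal cell markers lower. The part of these cells in the member signals was not tested.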

How the data were processed

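Whole-retina RNA was measured on 12 arrays, and the deposited signal intensity values were made by the authors with GeneChip Operating Software. Scaling of the arrays to each other and a test of differences are not given in the sources used here, and the values were analysed as they stand. Gene symbols came from the platform annotation (932 probe sets with several symbols and 9211 unnamed were counted only). R 4.3.3 with limma 3.58.1 (lmFit, eBayes with a trend) was run on log2(signal + 16), with 12 arrays in 1 model of 4 groups. Probe sets with a mean signal of at least 50 in a compared group were tested, after the 64 control probe sets were left out, and Benjamini-Hochberg adjustment ran over all of them at 0.05. The method was tested on simulated data with independent noise in each array. That simulation held no deviations shared between arrays and no scale differences within a group, so it does not cover them. A gene is represented by its probe set with the highest mean over the arrays. All members are named, with up to 3 genes of each of 16 lists (124 genes, 116 with a probe set), those with the largest change past the threshold at P12. Further mGluR6 partners and pigment genes were named after their values were seen. The members and lists were chosen with earlier results of these data known, so counts over them are descriptions. Arrays of the same age and replicate number deviated together (correlation of deviations from the group means 0.147 to 0.909, 6 of 6 pairs over 0.1). Arrays of the same number but unlike age had −0.137 to 0.697, and arrays of unlike number were not compared. Whether the numbers pair the arrays was therefore not tested, and blocked values stand beside the results they change. Alternatives were other scalings, offsets, signal limits, a block, each age alone, no trend, the median over probe sets and leaving out each array. The depth of an array is not counted, and the number of arrays limits the precision. Figures were drawn with Python 3.11.15 and matplotlib 3.10.9.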

Additional observations from a re-analysis of the deposited data

Results flagged for a closer look

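The genotype difference differed between the ages, by limma's test of the difference itself, for 5 probe sets of *Pcp2* and *Cabp5*. For *Pcp2* the P12 log2 change minus the P1 log2 change was −4.24 (1419085_at, adjusted p = 0.000249), −4.58 (1419084_a_at, adjusted p = 0.000524) and −3.05 (1424944_at, adjusted p = 0.000180). For *Cabp5* it was −4.11 (1451826_at, adjusted p = 0.000119) and −4.14 (1421780_a_at, adjusted p = 0.000126). All P1 signals of these probe sets were at or below 19.8, so the P1 change is bounded by the lower end of the arrays and the added 16.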

How the results depend on the processing

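The log2 changes of *Pcp2*, *Cabp5*, *Rgs11*, *Prkca* and *Gpr179* at P12 stayed below 0 in each alternative in which they were tested. With the replicate block within each age, and with quantile normalization within each age added to it (both chosen after seeing the data), 5 members were lower at P12 in place of 3, and 5 and 6 in place of 2 had a lower difference between the ages, the sixth being *Gnao1*. Calls over all probe sets rose too. In that order, 1552 of 21390 and 3808 of 21166 were lower at P12, and 860 of 21530 and 2261 of 21302 had a lower difference. With 1 replicate block over both ages 4 members were lower at P12, beside 1158 of all 21390 tested probe sets. The count of 2 lower differences between the ages became 4 after median scaling, beside 297 of all 16372 tested. It became 1 with an offset of 1, beside 173 of all 21530, where *Pcp2* had −2.72 (limma adjusted p = 0.0527). The 5 members higher at P12 than at P1 in the *Otx2* CKO retina became 2 after quantile normalization or median scaling, 3 with spike scaling, a signal limit of 100 or the median over the probe sets of a gene, and 8 with no signal filter. Over all probe sets 2456 of 17259, 1334 of 15081 and 6305 of 16002 were higher after quantile normalization, median scaling and spike scaling. The limit of 100 gave 14467 of 14856, the median over probe sets 8887 of 9094 genes, and no filter 33905 of 45037.

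*Gnao1* and *Rgs7*, never called at P12, changed sign. *Gnao1* at P12 had −0.28 after quantile normalization of all arrays and after median scaling, −0.27 after quantile normalization within an age with or without the block, and −0.30 with spikes. *Rgs7* had −0.31, −0.24, −0.32 and −0.27 in that order, and its difference between the ages −0.23, −0.14, −0.26 and −0.24. Leaving out each array in turn gave −0.17 to 0.21 for *Gnao1* and −0.31 to 0.35 for *Rgs7* at P12, −0.079 to 0.21 for *Gnao1* at P1, and differences between the ages of −0.28 to 0.10 for *Gnao1* and −0.077 to 0.58 for *Rgs7*. Over all probe sets at P12 the alternatives with all arrays gave 438 to 3808 lower and 377 to 7757 higher calls, the fewest with each age alone, and at P1 5 to 71 and 0 to 3. The 3 arrays a group and signals near or under the signal limit (*Trpm1*, *Gpr179* and all but *Gnao1* at P1) bound what can be said, and the causes of these changes were not tested.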
